A study of Mus musculus with 24 samples.

Results

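The genes described are 35 nuclear receptors and hepatocyte transcription factors of mouse liver, chosen by name: all array probes whose gene symbol matched 1 of 35 symbols were taken, out of 27248 gene symbols on the array. They fall into 6 sensors of lipids, bile acids, xenobiotics and vitamin D, 8 hormone and retinoid receptors, 11 receptors with no established hormone, 7 hepatocyte identity factors and 3 factors known to act in fasting. Of these, 34 were bright enough to be tested, and the vitamin D receptor gene Vdr was not: 1 of its probes was well above background in 2 fasted LKO animals and in no animal of the other groups. RNA from the livers of C57Bl/6J males, 8 weeks old and killed at ZT16 (zeitgeber time, hours after lights on), was hybridised to 1-colour expression arrays. The 4 groups were LKO mice, whose Ppara gene is knocked out in liver, fasted for 24 h (6 animals) or fed ad libitum (6 animals), and LWT mice, which are wild type for Ppara in liver, fasted for 24 h (5 animals) or fed ad libitum (5 animals). All mice were kept on the same chow, and the promoter that drives deletion of Ppara is not given in the sources used here. The labels give 22 animals on 24 arrays, because 1 fasted LWT and 1 fed LWT animal were each hybridised on 2 arrays, which were averaged; the series text speaks instead of an individual mouse for each of the 24 arrays.

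Nuclear receptors are transcription factors that bind DNA through zinc fingers and, in many cases, change activity when a small lipid-soluble ligand occupies their ligand-binding pocket. In hepatocytes they sense fatty acids, oxysterols, bile acids, drugs and hormones and act on genes that are kept accessible by factors such as HNF4A, the FOXA proteins, the ONECUT proteins and C/EBPalpha. PPARalpha, the product of Ppara, is the fatty-acid-sensing member of the receptor family and a main driver of fat oxidation in the fasted liver; it is the deleted gene here and is not among the 35.

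The sequences that matter most for reading the results are those of the probes, because several genes have probes that gave different answers. Esrrg had 3 probes that were bright enough. They lie on mouse chromosome 1 (build mm9, plus strand) at chr1:190038683-190038742, chr1:190038192-190038251 and chr1:189617558-189617617, and the first 30 of their 60 bases are shown, 5′ to 3′, in that order.
Esrrg probe 1: ccaatcagttcagatatgtaactcaaatta
Esrrg probe 2: cttgtagtgactctcgtgttttaatcaagc
Esrrg probe 3: aatacatagccttgtctcactgtgtagtct
Thra had probes at chr11:98626356-98626415 and chr11:98625642-98625701 (mm9, plus strand), shown in the same way because both carried the genotype difference described below.
Thra probe 1: aaatggtagtcatcctaactgcactttgga
Thra probe 2: tacctgctggcgtttgagcactacgtcaac
Onecut1, the member with the widest fasting difference, had probes at chr9:74737402-74737461 and chr9:74737272-74737331 (mm9, plus strand).
Onecut1 probe 1: atgagggaggaagaaccacggactagtacc
Onecut1 probe 2: tggggttggagctgagcactgtcagcaact
Foxa3 had 1 probe, at chr7:19599053-19599112 (mm9, minus strand).
Foxa3 probe: tgaccttttgagtatgtgacagaacacatc

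Promoter sequences from RefSeq (build GRCm38.p6) were matched by symbol for 31 of the 35 members, with 49 distinct start regions between them. The 250 bases before each start were searched on both strands for AGGTCA, the half-site that many nuclear receptors recognise, for AGGTCANAGGTCA, a direct repeat spaced by 1 base of the kind PPARalpha with RXR binds, which contains AGGTCA, and for TGTTTAC, the core recognised by FOXA and FOXO proteins. AGGTCA was present in 12.2% of the 49 member promoters and in 14.0% of 32851 promoters of all genes. TGTTTAC was present in 4.08% of member promoters and 3.17% of all promoters. AGGTCANAGGTCA was in none of the 49, and in 11 of the 32851, so these letters are rare in this window everywhere. The members with AGGTCA were Creb3l3, Nr1h4, Nr5a2, Nr6a1, Rarg and Thrb, and those with TGTTTAC were Foxa1 and Nr2f1. As an example of each, a start region of Creb3l3 and that of Foxa1, where the motif reads on the opposite strand, are printed with the match in capitals, at chr10:81092592-81092841 (minus strand) and chr12:57546112-57546361 (minus strand).
Creb3l3 promoter: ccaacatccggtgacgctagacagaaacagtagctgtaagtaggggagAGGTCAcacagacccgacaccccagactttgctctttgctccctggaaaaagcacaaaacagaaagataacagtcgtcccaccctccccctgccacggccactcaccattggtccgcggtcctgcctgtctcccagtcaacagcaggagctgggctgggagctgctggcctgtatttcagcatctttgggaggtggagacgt
Foxa1 promoter: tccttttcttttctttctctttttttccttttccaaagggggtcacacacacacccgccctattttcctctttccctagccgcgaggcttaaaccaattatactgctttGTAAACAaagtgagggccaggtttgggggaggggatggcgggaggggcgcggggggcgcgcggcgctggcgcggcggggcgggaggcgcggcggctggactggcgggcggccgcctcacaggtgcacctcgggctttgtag
These matches describe letters only, and binding was not measured here.

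Levels are given throughout as log2 of the processed signal relative to the 75th percentile of the same array, so they compare animals for 1 gene and not genes with each other. Differences are log2 differences of group means with a standard error (SE), and a gene is said to have risen or fallen, or to have been called, when its p-value, adjusted by the Benjamini-Hochberg method over 17215 genes, was below 0.05. In whole liver, fewer cells of a type and less RNA per cell cannot be told apart. Ppara itself ranged over 5.38 to 5.72 in fasted LKO livers and over 6.26 to 6.60 in fasted LWT livers, and over 4.47 to 5.51 in fed LKO livers and 5.55 to 6.07 in fed LWT livers, with no overlap in either feeding state. It was lower in LKO with a log2 difference of -0.88 (SE 0.14, adjusted p = 4.6e-05) when fasted and with a log2 difference of -0.67 (SE 0.14, adjusted p = 0.00609) when fed. Transcript was thus still detected in every LKO animal, and whether the probes lie in the deleted part is not given in the sources used here. Fed LKO replicate 3 stood apart from the other animals on the third principal component of all genes, at 57.3, while the other fed LKO animals lay between -16.8 and -4.61, and member calls that changed without it are given below. Each of 3 slides held 2 arrays of each group, and all 49 member differences that passed the test had the same sign within all 3 slides. The 49 were selected from these same arrays, so the shared sign is not a replication. The 75th percentile of the arrays ranged over 310 to 413 intensity units. The log2 of the summed signal of 10 hepatocyte markers was 12.7 to 12.8 in fasted LKO, 12.6 to 12.8 in fed LKO, 12.7 to 12.8 in fasted LWT and 12.6 to 12.8 in fed LWT livers.

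The first comparison asked which of these factors differed between LKO and LWT livers in each feeding state. Among fasted mice, 11 of the 34 members differed, 3 higher and 8 lower in LKO. Of all genes 37.9% were called, 16.5% higher and 21.4% lower (2843 and 3676 genes). That balance over all genes depends on the scaling: with quantile normalization 3408 were higher and 3206 lower, and 3 and 7 of the members. The number of members called in fasted mice, near the share of all genes, is not a result about the members. Among fed mice, 3 of the 34 differed, none higher and 3 lower in LKO, where 4.02% of all genes were called, 1.77% higher and 2.25% lower. The 3 members lower in fed LKO livers were Esrrg, Creb3l3 and Nr2f2, and all 3 were also lower in fasted LKO livers, which were different animals. Over all genes, 524 of the 692 called in fed mice (75.7%) were also called in fasted mice, 494 of them with the same sign. The median difference over the 34 members was -0.11 when fasted and -0.00036 when fed, beside -0.03 and 0.0053 over all genes.

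**Figure D1:**
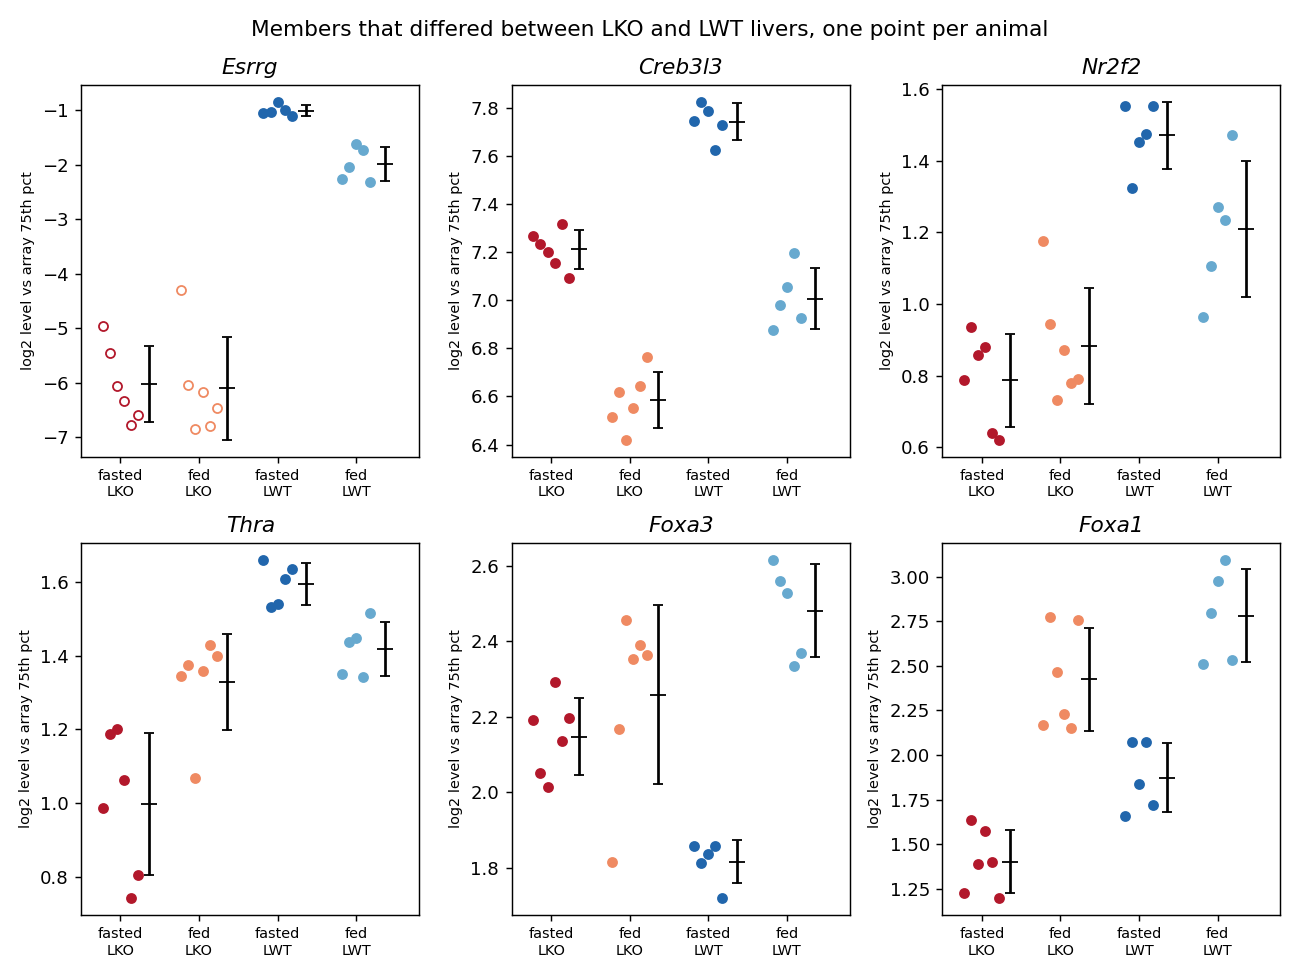
Levels of 6 members in each animal, as log2 signal relative to the array's 75th percentile, in fasted LKO, fed LKO, fasted LWT and fed LWT livers (6, 6, 5 and 5 animals). Filled points are animals in which the probe was well above background and open points are those in which it was not; the bar beside each group is the mean and SD. Esrrg was not well above background in any LKO animal at this probe, and Creb3l3 was lower in LKO in both feeding states.

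Esrrg encodes the orphan receptor ERRgamma, which drives oxidative metabolism genes in heart and muscle and gluconeogenic genes in the fasted mouse liver. At its brightest probe (probe 1 above) its level was -6.78 at the lowest, -6.20 at the median and -4.96 at the highest in fasted LKO livers, against -1.04, -1.03, -0.85, -1.003 and -1.11 in the 5 fasted LWT livers. In fed animals it was -6.85, -6.32 and -4.30 (lowest, median, highest) in LKO, against -2.26, -2.05, -1.63, -1.72 and -2.32 in LWT. The groups were far apart in both feeding states, and no LKO animal was well above background at this probe, while all 10 LWT animals were. Since the LKO signal gives only an upper limit, the difference is a bound: Esrrg was at least 11.5-fold lower in fasted LKO than in fasted LWT livers. For this bound the dim signal was taken at the lowest level that counted as well above background on each array. For fed mice the same probe gave at least 5.09-fold lower in LKO. The measured means were -6.03 in fasted LKO and -1.01 in fasted LWT livers, and -6.11 in fed LKO and -2.00 in fed LWT livers. The limma fit of the measured levels gave adjusted p = 1.71e-09 when fasted and 2.49e-07 when fed, and these p-values do not test the bounds. The probe was bright enough to be tested only through its LWT animals.

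Esrrg probe 2 on the same annotated transcript also lacked any LKO animal well above background, and gave bounds of at least 7.17-fold lower when fasted and at least 2.86-fold lower when fed. Probe 3, annotated to a different transcript, was dim in all groups: it was well above background in 2 fed LKO and 3 fasted LWT animals and in none of the others, and its genotype differences (log2 -0.52, SE 0.26, fasted; 0.08, SE 0.26, fed) were not called. The gene-level statement therefore holds for probes 1 and 2 and was not seen at probe 3. In LWT livers Esrrg was higher after fasting by 0.99 (SE 0.38, adjusted p = 0.0419) with no overlap of the 5 fasted and 5 fed animals, a call that was lost in 10 of 31 alternative settings (highest adjusted p = 0.0863); probe 2 gave 1.13 (SE 0.25, adjusted p = 0.000951).

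Creb3l3 encodes CREBH, a membrane-bound transcription factor of the endoplasmic reticulum in hepatocytes that is cut free in fasting and acts with PPARalpha on genes such as Fgf21. Its level was 7.09, 7.22 and 7.32 (lowest, median, highest) in fasted LKO livers, against 7.74, 7.82, 7.79, 7.62 and 7.73 in fasted LWT livers. In fed livers it was 6.42, 6.59 and 6.76 in LKO, against 6.87, 6.98, 7.06, 7.20 and 6.93 in LWT. Every LKO animal was below every LWT animal in the same feeding state. The difference was -0.53 (SE 0.07, adjusted p = 2.19e-06) in fasted and -0.42 (SE 0.07, adjusted p = 0.000406) in fed mice, and both passed the test in all 32 alternative settings. Fasting raised it in both genotypes, by 0.63 (SE 0.06, adjusted p = 7.15e-08) in LKO and 0.73 (SE 0.07, adjusted p = 4.96e-08) in LWT, and the 2 fasting differences were not shown to differ (-0.11, SE 0.09, adjusted p = 0.466). The mean level of fasted LKO livers, 7.21, lay between those of fasted LWT livers, 7.74, and fed LWT livers, 7.01.

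Nr2f2 encodes COUP-TFII, a receptor with no established hormone that in liver is found in endothelial and stellate cells as well as in hepatocytes. It was 0.62, 0.82 and 0.94 (lowest, median, highest) in fasted LKO livers, against 1.55, 1.33, 1.45, 1.47 and 1.55 in fasted LWT livers, with no overlap. The difference was -0.68 (SE 0.09, adjusted p = 5.02e-06). In fed mice it was 0.73, 0.83 and 1.18 in LKO, against 0.96, 1.11, 1.27, 1.23 and 1.47 in LWT, where the groups overlapped and the difference was -0.33 (SE 0.09, adjusted p = 0.0437). The fed call was lost in 17 of 32 alternative settings (highest adjusted p = 0.145), among them the one without fed LKO replicate 3 (adjusted p = 0.0736). All 10 endothelial marker genes tested were also lower in fasted LKO than in fasted LWT livers, and the log2 of their summed signal was 5.53 to 5.84 in fasted LKO, 5.79 to 6.31 in fed LKO, 6.08 to 6.65 in fasted LWT and 5.90 to 6.24 in fed LWT livers. None of the 10 was called in fed mice. Of 10 stellate cell markers, 1 was lower and none higher in fasted LKO than in fasted LWT livers, where 21.4% of all genes were lower. None of the stellate cell markers was called in fed mice, and the part of either cell type in the Nr2f2 result was not tested. Its paralog Nr2f1, COUP-TFI, was lower in fasted LKO livers by a smaller amount (log2 -0.22, SE 0.06, adjusted p = 0.0107), with 6 LKO animals between -1.10 and -0.79 and the 5 LWT animals between -0.75 and -0.67. The third family member, Nr2f6, was the other way, higher in fasted LKO livers by 0.19 (SE 0.05, adjusted p = 0.00548), with overlap of the groups, and was not called with probes averaged (0.17, adjusted p = 0.164).

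Thra encodes thyroid hormone receptor alpha, the less abundant thyroid receptor of hepatocytes in the textbook account. It was 0.74, 1.02 and 1.20 (lowest, median, highest) in fasted LKO livers, against 1.66, 1.53, 1.54, 1.61 and 1.64 in fasted LWT livers, with no overlap. The difference was -0.60 (SE 0.08, adjusted p = 6.33e-06). In fed mice the levels were 1.07, 1.37 and 1.43 in LKO, against 1.35, 1.44, 1.45, 1.34 and 1.51 in LWT, and overlapped (log2 -0.09, SE 0.08, adjusted p = 0.66). Thra fell with fasting in LKO with a log2 difference of -0.33 (SE 0.08, adjusted p = 0.00112) and was not called in LWT (0.18, SE 0.08, adjusted p = 0.0927), although fasted and fed LWT animals did not overlap, and the difference of the fasting responses passed the test (-0.51, SE 0.11, adjusted p = 0.00359). Probe 2 gave the same picture with larger values, a fasted genotype difference of -0.80 (SE 0.10), a difference of responses of -0.80 (SE 0.14) and a rise of 0.35 (SE 0.10, adjusted p = 0.00966) with fasting in LWT. A dimmer probe gave no genotype difference that passed (-0.31, SE 0.24, fasted), and with all 3 probes averaged the fall in LKO was no longer called (adjusted p = 0.268) while the rise in LWT was (0.42, adjusted p = 0.00317). Nr1d1, which encodes the clock receptor REV-ERBalpha and lies on the opposite strand with its 3′ end overlapping that of a Thra splice form, was lower in LKO with a log2 difference of -1.76 (SE 0.21) when fasted and with a log2 difference of -0.80 (SE 0.21) when fed. Thyroid hormone receptor beta, Thrb, differed from this pattern: it was lower after fasting in both genotypes, with a log2 difference of -0.33 (SE 0.06) in LKO and -0.40 (SE 0.07) in LWT, and did not differ detectably between genotypes (0.08, SE 0.06, fasted; 0.0016, SE 0.06, fed).

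Foxa3 was the other member whose fasting response differed between genotypes. It is 1 of 3 FOXA factors, which open chromatin at liver genes. Its level was 2.02, 2.16 and 2.29 (lowest, median, highest) in fasted LKO livers, against 1.86, 1.81, 1.84, 1.86 and 1.72 in fasted LWT livers, with no overlap and a difference of 0.33 (SE 0.09, adjusted p = 0.00676). In fed livers it was 1.82, 2.36 and 2.46 in LKO, against 2.62, 2.56, 2.53, 2.33 and 2.37 in LWT (log2 -0.22, SE 0.09, adjusted p = 0.219). Fasting lowered Foxa3 in LWT (log2 -0.66, SE 0.10, adjusted p = 1.01e-05), while in LKO the difference was -0.11 (SE 0.09, adjusted p = 0.311). Without fed LKO replicate 1 it was called in LKO as well (log2 -0.20, SE 0.06, adjusted p = 0.0155). The difference of the 2 responses was 0.55 (SE 0.13, adjusted p = 0.00504) and passed in all 32 alternative settings (0.47 to 0.59). Thra and Foxa3 were the 2 members called in this comparison, 1 lower and 1 higher, where 18.6% of all genes were called, 7.5% higher and 11.1% lower (1291 and 1909 genes; with quantile normalization 1645 and 1574). Without fed LKO replicate 3, 4 members were called: Thra and Foxa3 again, Nr2f2 (-0.39, SE 0.13, adjusted p = 0.0342) and Nr1i3 (-0.37, SE 0.13, adjusted p = 0.0491).

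Foxa1 was also lower in fasted LKO livers. It was 1.20, 1.39 and 1.63 (lowest, median, highest) in fasted LKO livers, against 1.66, 2.07, 1.84, 2.07 and 1.72 in fasted LWT livers, a difference of -0.47 (SE 0.14, adjusted p = 0.0102) with no overlap. In fed mice the difference was -0.36 (SE 0.14) and was not called (adjusted p = 0.189). Of the other members, the bile acid receptor gene Nr1h4 (FXR) was lower in fasted LKO livers with a log2 difference of -0.26 (SE 0.09, adjusted p = 0.0213), and the testicular receptor gene Nr2c1 with a log2 difference of -0.30 (SE 0.11, adjusted p = 0.0291), while Foxo3, a forkhead factor held out of the nucleus by insulin signalling, was higher by 0.35 (SE 0.13, adjusted p = 0.0327). In all 3 the groups overlapped, and the calls were lost in 4, 7 and 8 of the 32 alternative settings. A second Foxo3 probe gave 0.48 (SE 0.12, adjusted p = 0.00319). The remaining 23 tested members were not called in fasted mice at their brightest probe. With probes averaged, Hnf4a (0.22, adjusted p = 0.0236) and Nr3c1 (0.21, adjusted p = 0.0438) were called higher in fasted LKO livers.

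**Figure D2:**
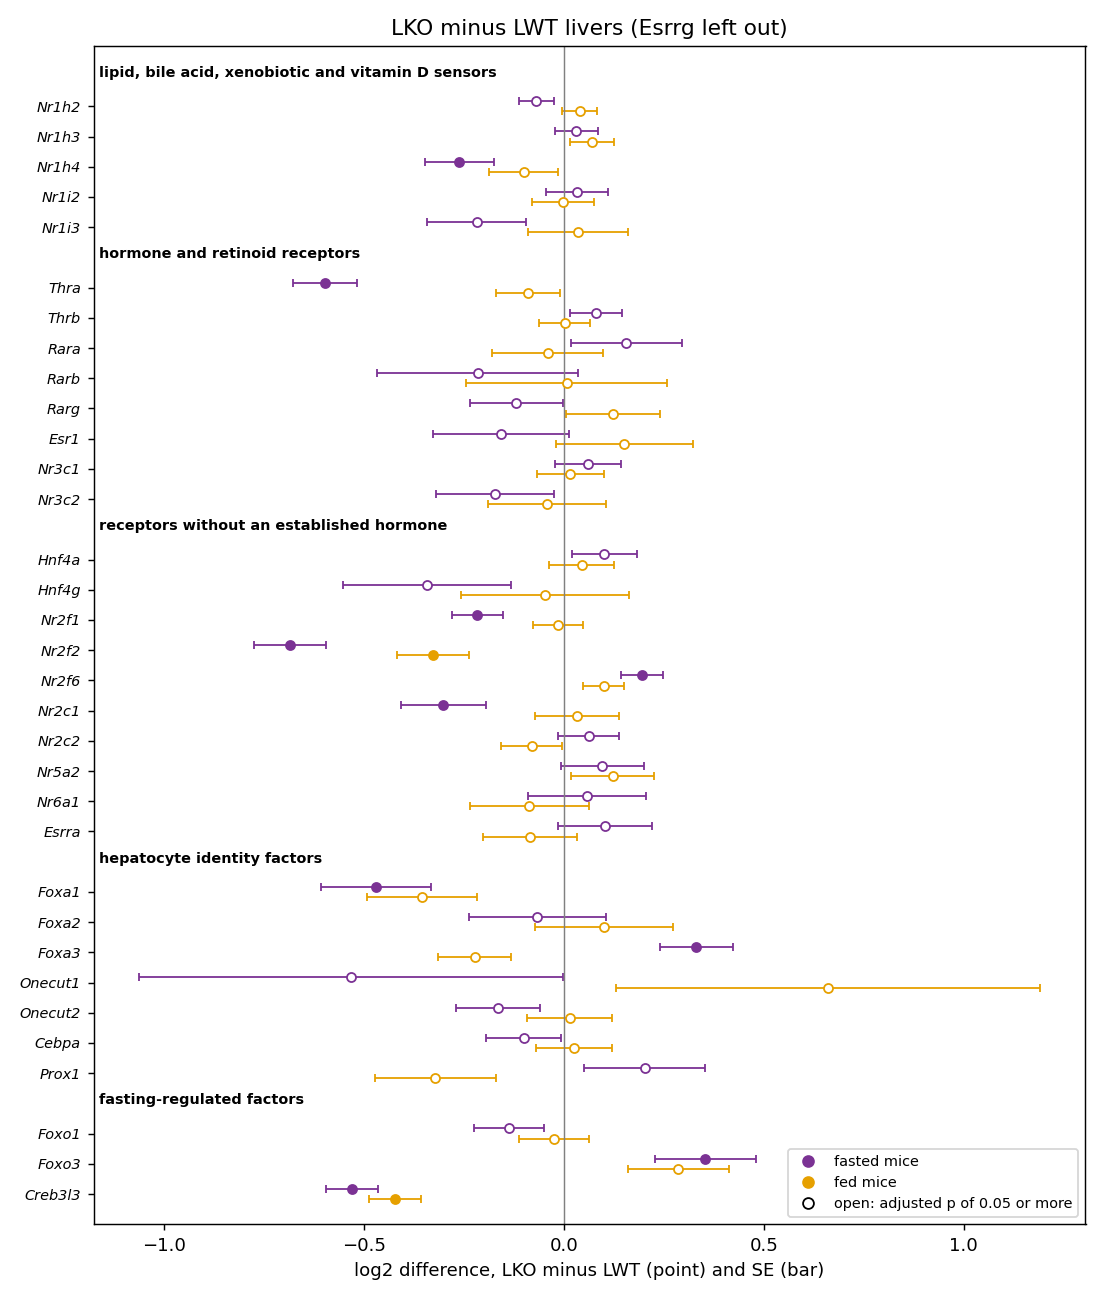
Log2 difference between LKO and LWT livers for 33 members, grouped by role, in fasted mice (purple) and fed mice (orange); points are differences of group means, bars are SE, and filled points had an adjusted p below 0.05. Esrrg is left out because its LKO signal is only a bound. Thra, Nr2f2, Creb3l3 and Foxa1 lie to the left in fasted mice, and Foxa3, Foxo3 and Nr2f6 to the right.

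The second comparison asked what 24 h without food did to the same factors. In LKO livers 17 of the 34 members changed, 6 higher and 11 lower; of all genes 49.7% were called, 23% higher and 26.7% lower. In LWT livers 16 changed, 7 higher and 9 lower. Of all genes 44.4% were called, 23.1% higher and 21.2% lower (3983 and 3658 genes, with quantile normalization 3796 and 3940). The share of members called, near to that of all genes, is not a result about the members. The 2 comparisons share no animals: 12 members were called in both, which is 70.6% of those called in LKO and 75% of those called in LWT, and all 12 had the same sign. Of all genes, 5173 were called in both, 60.5% and 67.7% of each list, and 4857 of them had the same sign.

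**Figure D3:**
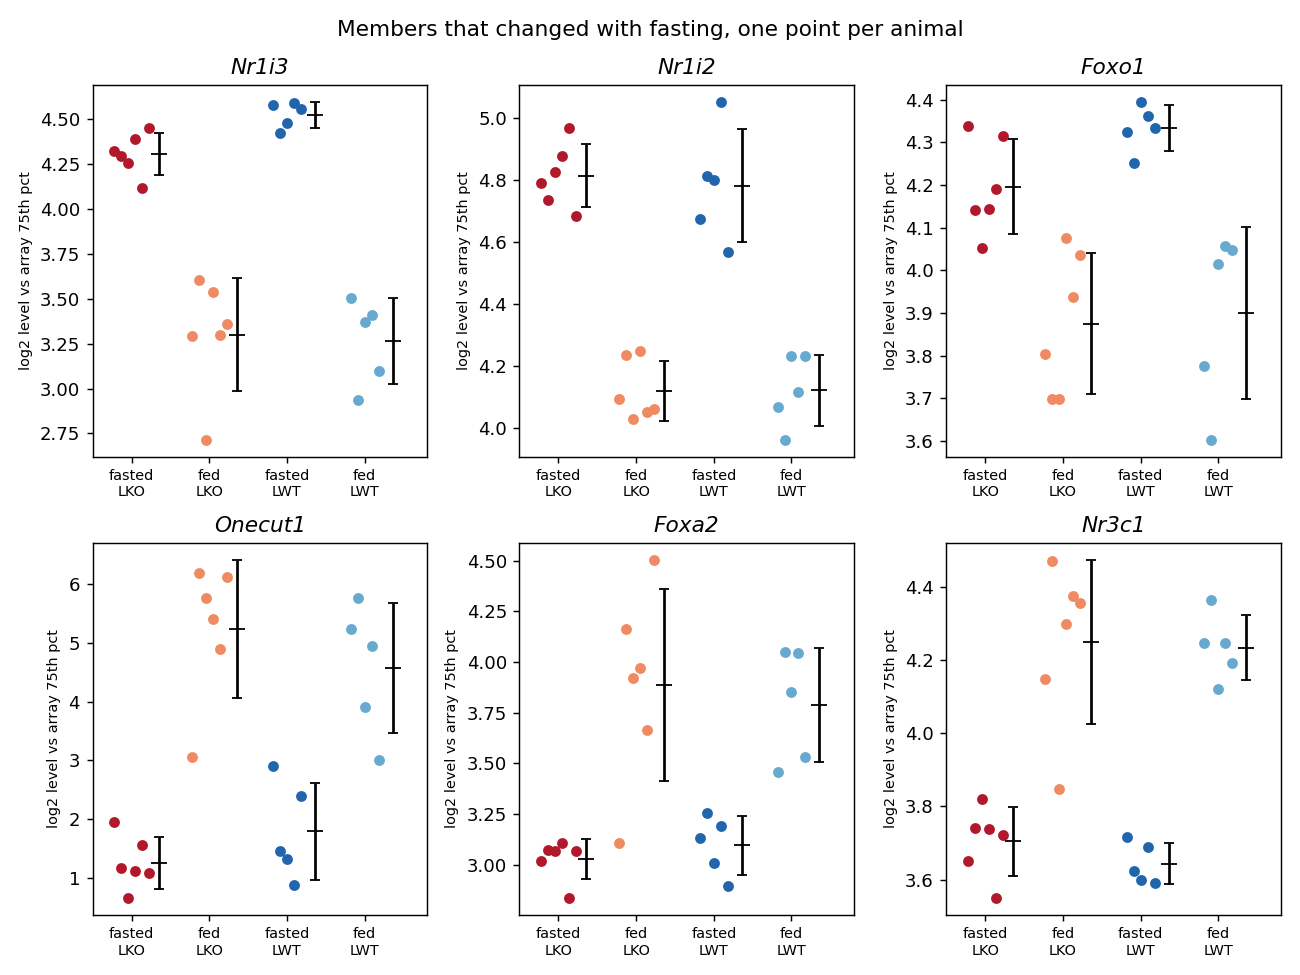
Levels of 6 members that changed with fasting in each animal, as log2 signal relative to the array's 75th percentile, in fasted LKO, fed LKO, fasted LWT and fed LWT livers; bars are mean and SD. Nr1i3, Nr1i2 and Foxo1 were higher and Onecut1, Foxa2 and Nr3c1 lower after fasting in both genotypes.

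Of the 5 sensors tested, 2 rose and 1 fell in LKO and 3 rose and none fell in LWT, and the 2 xenobiotic receptors rose in both. Over all genes, 23% were higher and 26.7% lower in LKO, and 23.1% higher and 21.2% lower in LWT. Nr1i3 encodes CAR and Nr1i2 encodes PXR, which switch on drug-metabolising enzymes and transporters. Nr1i3 was 4.12, 4.31 and 4.45 (lowest, median, highest) in fasted LKO livers, against 2.72, 3.33 and 3.60 in fed LKO livers. In LWT livers it was 4.57, 4.42, 4.47, 4.59 and 4.55 when fasted, against 3.51, 2.94, 3.37, 3.41 and 3.10 when fed. No fasted animal overlapped the fed animals of its genotype, and the rise was 1.00 (SE 0.12, adjusted p = 6.81e-07) in LKO and 1.26 (SE 0.13, adjusted p = 2.05e-07) in LWT, or 2.01-fold and 2.39-fold. A second probe gave 1.15 in LKO and 1.37 in LWT. Nr1i2 rose by 0.69 (SE 0.07, adjusted p = 1.75e-07) in LKO, with 6 fasted animals between 4.68 and 4.97 and 6 fed animals between 4.03 and 4.25. In LWT it rose by 0.66 (SE 0.08, adjusted p = 1.56e-06), with the fasted animals at 4.67, 4.81, 4.80, 5.05 and 4.57 and the fed ones at 4.07, 3.96, 4.23, 4.12 and 4.23. Nr1h3 (LXRalpha), the lipogenic form in liver, fell in LKO with a log2 difference of -0.14 (SE 0.05, adjusted p = 0.0261), and Nr1h2 (LXRbeta) rose by 0.15 in LWT (SE 0.05, adjusted p = 0.00987), both with overlap. The Nr1h3 call was lost in 7 of 32 alternative settings: with the authors' deposited table (log2 -0.06, adjusted p = 0.364), quantile normalization (log2 -0.08, adjusted p = 0.208) or no filter on dim probes, and without fasted LKO replicate 3 or fed LKO replicate 2, 4 or 6. Nr1h4 was not called in either genotype at its brightest probe (log2 -0.07, SE 0.08, in LKO and 0.09, SE 0.09, in LWT). In LKO it was called lower without fed LKO replicate 3 (log2 -0.16, SE 0.06, adjusted p = 0.0444), with probes averaged (log2 -0.23, SE 0.08, adjusted p = 0.0195) and at its other probe (log2 -0.39, SE 0.10, adjusted p = 0.0029).

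Of the 8 hormone and retinoid receptors none rose, 3 fell in LKO and 2 fell in LWT. Beside these counts, 23% of all genes were higher and 26.7% lower in LKO, and 23.1% higher and 21.2% lower in LWT. Counts near these shares are not results about the receptors. Nr3c1, which encodes the glucocorticoid receptor through which fasting corticosterone acts, fell. It was 3.55, 3.73 and 3.82 (lowest, median, highest) in fasted LKO livers, against 3.85, 4.33 and 4.47 in fed LKO livers. In LWT livers it was 3.72, 3.62, 3.60, 3.69 and 3.59 when fasted, against 4.25, 4.36, 4.12, 4.25 and 4.19 when fed. The log2 difference was -0.54 (SE 0.08, adjusted p = 9.92e-06) in LKO and -0.59 (SE 0.09, adjusted p = 1.56e-05) in LWT, with no overlap in either. The retinoic acid receptor genes Rara, Rarb and Rarg were not called in any comparison. The mineralocorticoid receptor gene Nr3c2 was not called at its brightest probe either (log2 -0.31, SE 0.14, adjusted p = 0.0726, in LKO and -0.18, SE 0.15, adjusted p = 0.365, in LWT). In LKO it was called lower with fasting without fed LKO replicate 3 (log2 -0.39, adjusted p = 0.0252), without fed LKO replicate 1 (log2 -0.38, adjusted p = 0.0345) and at another probe (log2 -0.45, SE 0.18, adjusted p = 0.0463), and in LWT with probes averaged (log2 -0.48, SE 0.18, adjusted p = 0.0363). Esr1, the estrogen receptor alpha gene, was not called at its brightest probe (log2 -0.30, SE 0.16, in LKO and 0.01, SE 0.18, in LWT), but 3 of its other probes were lower after fasting in LKO, with values of -0.56, -1.23 and -1.08, and 1 of these was also called in LWT (log2 -0.88, SE 0.21). The probes of Esr1 therefore disagree on whether it changed, and none was called higher; with all its probes averaged it was called in LKO (log2 -0.69, SE 0.13, adjusted p = 0.000157), as was the brightest probe without fasted LKO replicate 1 (log2 -0.39) or fed LKO replicate 6 (log2 -0.43).

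Of the 11 receptors with no established hormone, 2 rose and 2 fell in each genotype, and 7 were not called in each. These counts stand beside 23% of all genes higher and 26.7% lower in LKO, and 23.1% higher and 21.2% lower in LWT. Nr2f1 and Nr2f6 fell in both: Nr2f1 with a log2 difference of -0.42 (SE 0.06) in LKO and -0.22 (SE 0.07) in LWT, and Nr2f6 with a log2 difference of -0.20 (SE 0.05) in LKO and -0.30 (SE 0.05) in LWT. The Nr2f6 call in LKO was lost with the authors' deposited table (log2 -0.10, adjusted p = 0.112) and with quantile normalization (log2 -0.11, adjusted p = 0.0546), and that in LWT with probes averaged (log2 -0.23, adjusted p = 0.0539). The Nr2f1 call in LWT was lost with 1 of the 2 choices of a single array for a twice-hybridised animal (log2 -0.16, adjusted p = 0.0804). In LKO the risers were Hnf4a (0.21, SE 0.08, adjusted p = 0.0254), the constitutive regulator of most hepatocyte genes, and the testicular receptor gene Nr2c2 (0.25, SE 0.07, adjusted p = 0.00707). The Hnf4a call was lost in 4 of 32 alternative settings, among them the one without fed LKO replicate 3 (adjusted p = 0.0637). In LWT the risers were Esrrg, given above, and Nr2f2 (0.26, SE 0.09, adjusted p = 0.0282), whose call was lost in 6 of the 32. Of the 10 endothelial markers, 6 were higher after fasting in LWT and none lower, where 23.1% of all genes were higher. Of 10 stellate cell markers, 4 were higher and 4 lower. The part of either cell type in the Nr2f2 rise was not tested. Hnf4g, Nr5a2 (LRH-1, a bile acid synthesis regulator), Nr6a1 and Esrra were not called in any comparison at their brightest probe. Esrra, the estrogen-related receptor alpha gene, had a second probe that was lower in fasted LKO than in fasted LWT livers (log2 -0.45, SE 0.14, adjusted p = 0.0131) and had a difference of responses of -0.61 (SE 0.19, adjusted p = 0.0353), whereas its brightest probe gave 0.10 (SE 0.12) and 0.19 (SE 0.17). The brightest Esrra probe was 0.26 (SE 0.11, adjusted p = 0.0594) with fasting in LKO, and higher by the test in 7 of 32 alternative settings. Hnf4g was near the detection limit, with 1 or 2 animals well above background in each group.

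Among the 7 identity factors, 5 fell and none rose in each genotype. Over all genes, 23% were higher and 26.7% lower in LKO, and 23.1% higher and 21.2% lower in LWT. Onecut1 encodes HNF6, a cut-homeodomain factor that works with HNF4A and the FOXA proteins in liver. It was 0.67, 1.15 and 1.95 (lowest, median, highest) in fasted LKO livers, against 3.05, 5.58 and 6.17 in fed LKO livers. In LWT livers it was 2.90, 1.46, 1.33, 0.89 and 2.40 when fasted, against 5.24, 5.75, 3.91, 4.94 and 3.01 when fed. Fasted and fed animals did not overlap, but the lowest fed LWT animal at 3.01 stood close to the highest fasted one at 2.90. The log2 difference was -3.97 (SE 0.51, adjusted p = 1.78e-06), or 15.7-fold, in LKO and -2.78 (SE 0.55, adjusted p = 0.000377), or 6.85-fold, in LWT. Probe 2 gave smaller log2 differences of -2.67 (SE 0.38) and -1.83 (SE 0.42). The difference of the 2 responses was not called (log2 -1.19, SE 0.75, adjusted p = 0.300).

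Foxa1 fell with a log2 difference of -1.02 (SE 0.13, adjusted p = 1.9e-06) in LKO and -0.91 (SE 0.14, adjusted p = 3.28e-05) in LWT, without overlap: fed livers lay between 2.15 and 2.78 in LKO and between 2.51 and 3.09 in LWT, and the fasted ones are given above. Foxa2 fell with a log2 difference of -0.86 (SE 0.16, adjusted p = 0.000191) in LKO, with fasted animals between 2.84 and 3.11 and fed animals between 3.11 and 4.50, and with a log2 difference of -0.69 (SE 0.18, adjusted p = 0.00364) in LWT. Foxa3 is given above. Cebpa, which encodes the leucine zipper factor C/EBPalpha, fell with a log2 difference of -0.43 (SE 0.09, adjusted p = 0.000431) in LKO and -0.31 (SE 0.10, adjusted p = 0.0152) in LWT, and the LWT call was lost without fasted LWT replicate 5 (adjusted p = 0.0528). Onecut2, the relative of Onecut1, fell in LKO (log2 -0.43, SE 0.10, adjusted p = 0.00126) and was -0.25 (SE 0.11, adjusted p = 0.0689) in LWT. The LWT difference passed in 6 of 32 alternative settings: with the authors' deposited table (adjusted p = 0.0404), without fed LKO replicate 3 (adjusted p = 0.0461), and without fasted LKO replicate 3, fed LKO replicate 1, fasted LWT replicate 1 or fed LWT replicate 5. The homeobox gene Prox1 was near the threshold in LWT, where it was between 2.63 and 3.17 when fasted and between 2.68 and 3.76 when fed (log2 -0.39, SE 0.16, adjusted p = 0.0529), and was not called in LKO (0.14, SE 0.14, adjusted p = 0.462). It was called lower in LWT in 10 of 32 alternative settings, among them the authors' deposited table, quantile normalization, normexp background correction and the slide as a block (adjusted p = 0.0304). Without fed LWT replicate 2 the LWT difference was -0.55 (SE 0.13, adjusted p = 0.00245), and Prox1 was also called in the difference of responses (0.68, SE 0.17, adjusted p = 0.0107) and lower in fed LKO than in fed LWT livers (log2 -0.48, SE 0.13, adjusted p = 0.0354).

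The fasting-regulated factors Creb3l3 and Foxo1 rose and Foxo3 was not called at its brightest probe. Foxo1, the insulin-restrained activator of gluconeogenic genes, was 4.05, 4.17 and 4.34 (lowest, median, highest) in fasted LKO livers, against 3.70, 3.87 and 4.08 in fed LKO livers, with overlap. In LWT it was 4.33, 4.25, 4.40, 4.36 and 4.33 when fasted, against 3.78, 3.60, 4.01, 4.06 and 4.05 when fed, without overlap. The rise was 0.32 (SE 0.08, adjusted p = 0.00299) in LKO and 0.43 (SE 0.09, adjusted p = 0.000606) in LWT. The other probes of Foxo3 gave rises in LKO of 0.49 (SE 0.11, adjusted p = 0.00132) and 0.62 (SE 0.19, adjusted p = 0.00963).

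**Figure D4:**
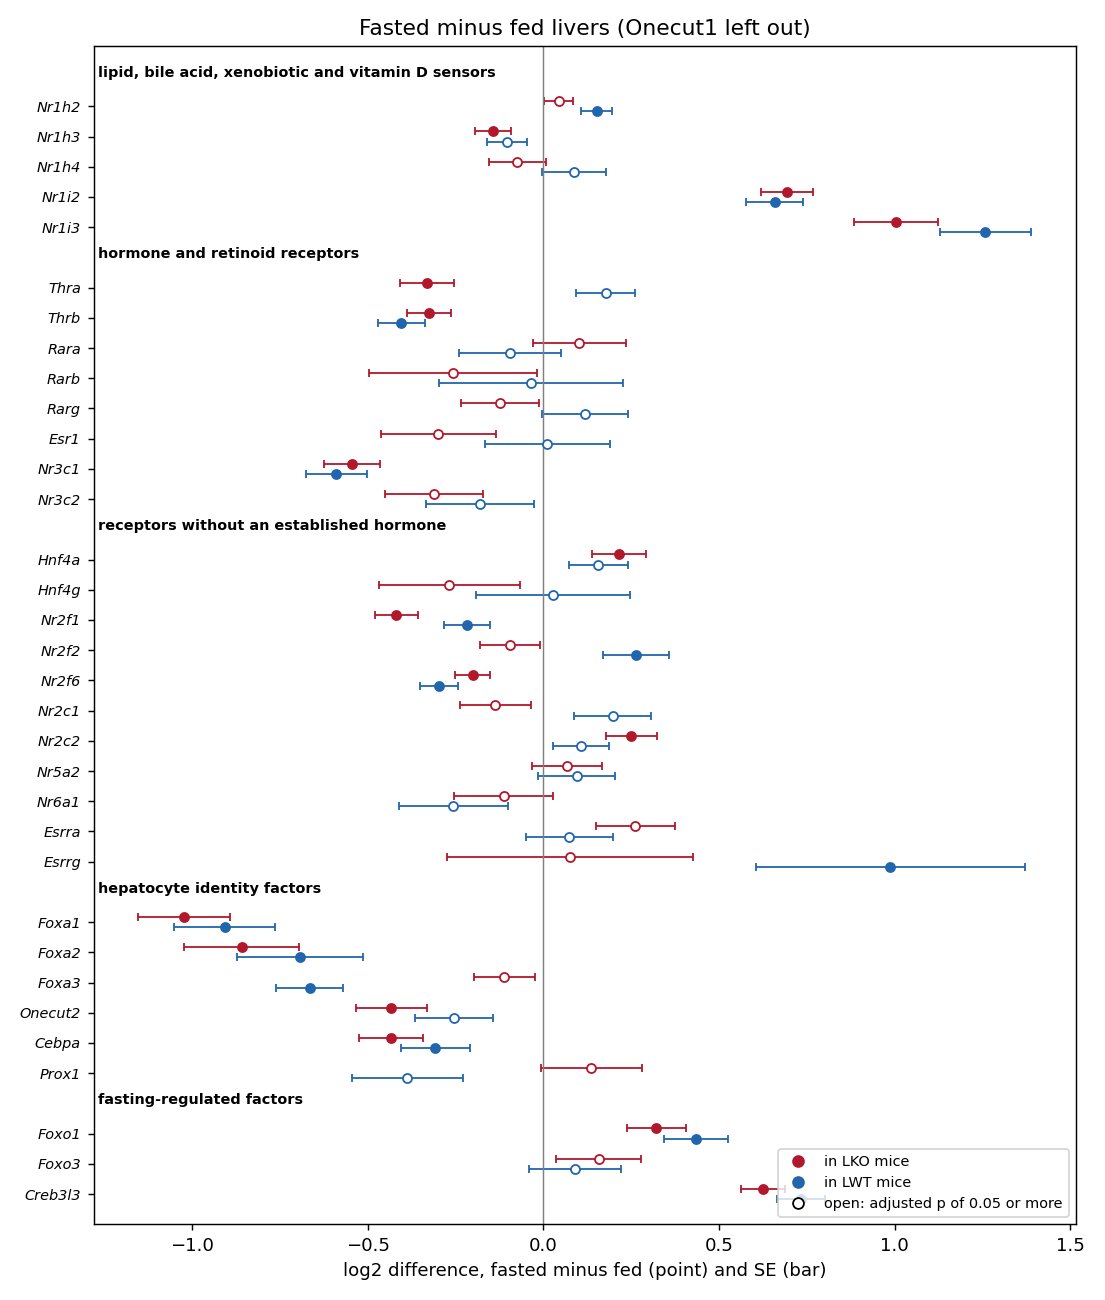
Log2 difference between fasted and fed livers for 33 members, grouped by role, in LKO mice (red) and LWT mice (blue); points are differences of group means, bars are SE, and filled points had an adjusted p below 0.05. Onecut1 is left out because its change would compress the axis. Nr1i2, Nr1i3, Creb3l3 and Foxo1 lie to the right and Foxa1, Foxa2, Nr3c1 and Cebpa to the left in both genotypes, while the responses of Foxa3 and Thra differ by genotype.

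Lists of target genes of these receptors and factors, drawn from textbook knowledge, were counted in the same comparisons. The lists were chosen with earlier results of these data known, so their counts only describe these data. Of all genes, 49.7% were called with fasting in LKO (23% higher, 26.7% lower) and 44.4% in LWT (23.1% higher, 21.2% lower). Between LKO and LWT livers, 37.9% were called when fasted (16.5% higher, 21.4% lower) and 4.02% when fed. Counts near these shares are not results about a list. Of 11 glucocorticoid receptor targets, 10 were higher and none lower after fasting in LKO and 9 higher and none lower in LWT, with a median change of 0.93 and 0.97, while Nr3c1 itself fell; the metallothionein gene Mt2 was higher by 3.48 (SE 0.69) in LKO and 4.22 (SE 0.75) in LWT. Of 14 CAR and PXR targets, 7 were higher and 1 lower in LKO and 7 higher and 2 lower in LWT. The stress gene Gadd45b was higher by 2.93 (SE 0.26) in LKO and 3.44 (SE 0.29) in LWT and the organic anion transporter gene Slco1a4 by 1.80 (SE 0.17) and 1.75 (SE 0.19), whereas the P450 gene Cyp2c55 was -2.09 (SE 0.20) and -2.52 (SE 0.22). Of 8 FOXO1 targets, 5 were higher and none lower after fasting in each genotype, and 4 were lower and none higher in fasted LKO than in fasted LWT livers, among them the triglyceride lipase gene Pnpla2 (log2 -1.04, SE 0.10) and the glucose-6-phosphatase gene G6pc (log2 -0.92, SE 0.24).

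Of 7 targets of CREB3L3, 5 rose in each genotype and 1 fell in LKO, and Fgf21, the fasting hormone gene, was lower with a log2 difference of -2.75 (SE 0.53, adjusted p = 0.000389) in fasted LKO than in fasted LWT livers. Apoa4, the apolipoprotein gene, went the other way and was higher by 0.89 (SE 0.14) in fasted and 1.55 (SE 0.14) in fed LKO livers. In fed mice, 1 of the 7 targets was higher and 1 lower in LKO, where 4.02% of all genes were called. The Fgf21 difference of responses was not called in the main fit. Of 8 LXR targets, 7 were lower and 1 higher in fasted LKO than in fasted LWT livers, with a median of -0.80, although neither Nr1h2 nor Nr1h3 was called in that comparison; among them the ubiquitin ligase gene Mylip was -1.04 (SE 0.15) and the phospholipid enzyme gene Lpcat3 -0.94 (SE 0.10), and the desaturase gene Scd1 was the 1 that was higher (1.33, SE 0.36). Of 7 thyroid hormone receptor targets, 4 were lower and 1 higher in fasted LKO than in fasted LWT livers; the mitochondrial glycerol phosphate dehydrogenase gene Gpd2 was -1.43 (SE 0.15) when fasted and -0.73 (SE 0.15) when fed, and the corepressor gene Hr was -1.01 (SE 0.18) when fasted. The lipogenic gene Thrsp was lower after fasting with a log2 difference of -4.93 (SE 0.26) in LKO and -4.50 (SE 0.28) in LWT. Of 9 HNF4A targets, 2 were higher and 4 lower after fasting in LKO, and 4 higher and 2 lower in LWT; the bile acid enzyme gene Cyp8b1 was higher by 1.26 (SE 0.25) in LKO and 2.50 (SE 0.28) in LWT. Of 4 FXR targets, 2 were higher and 2 lower after fasting in LKO and 1 higher and 2 lower in LWT, and of 6 retinoic acid receptor targets 3 were lower and none higher in LKO and 1 was lower and 1 higher in LWT. Many of these genes answer to several factors, PPARalpha included, and the part of each in their values was not tested.

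**Figure D5:**
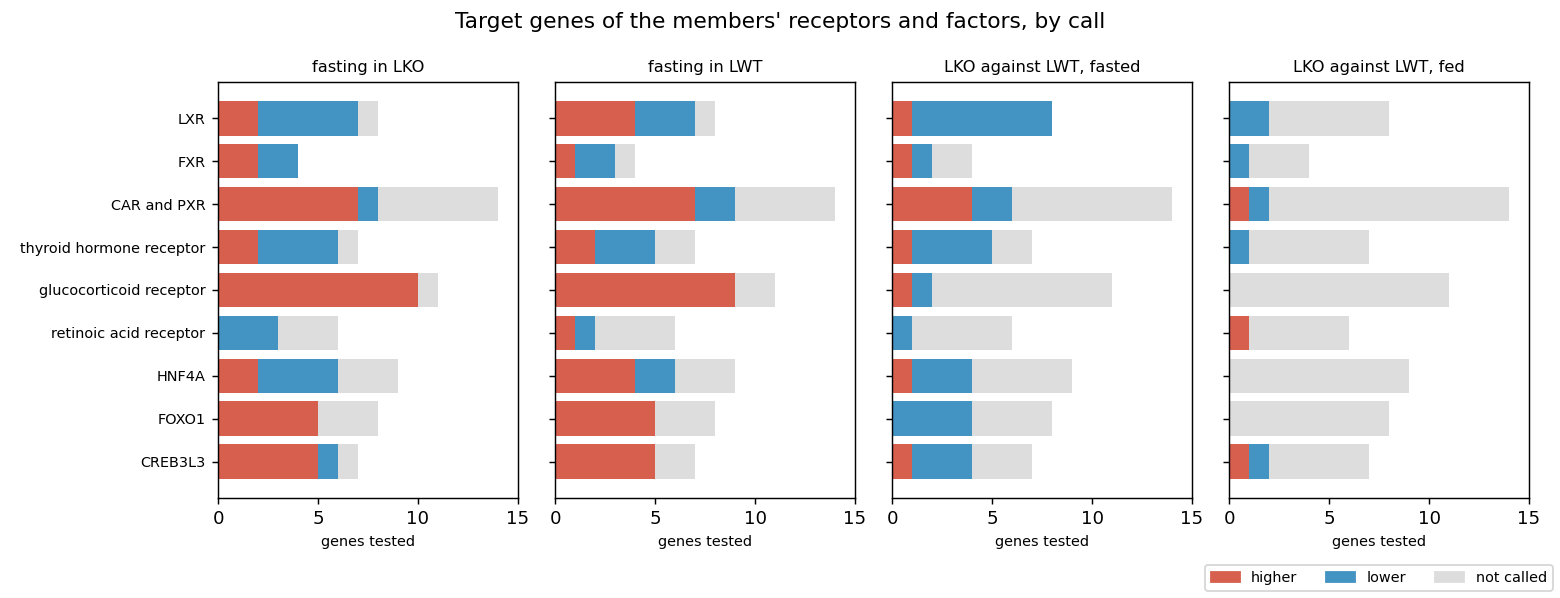
Number of target genes of each receptor or factor that were higher (red), lower (blue) or not called (grey) after fasting in LKO and in LWT livers, and in LKO against LWT livers of fasted and of fed mice. Glucocorticoid receptor and FOXO1 targets had none lower with fasting, and of the 8 LXR targets 7 were lower in fasted LKO livers. Of all genes, 49.7% were called with fasting in LKO and 44.4% in LWT. Between LKO and LWT livers, 37.9% were called when fasted and 4.02% when fed.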

How the data were processed

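Liver RNA of 22 mice was hybridised with Cy3 to 24 arrays in 3 slides. The authors deposited scanner files whose processed signal is an intensity after background subtraction by Agilent Feature Extraction 10.10.1.1, per the file headers, and a table of log2 values that the authors deposited with its normalization not given in the sources used here (limma is named in the submitters' processing notes). Coordinates are those of the file headers' probe design (mm9). The log2 processed signal of 56605 non-control probes was centred on each array's 75th percentile, 2804 outlier spots were left out, and the 2 arrays of a twice-hybridised animal were averaged. Of 46291 probes with a symbol, 28138 exceeded the scanner's background test in 5 or more of 22 animals, and the brightest stood for each of 17215 genes (for 14 genes an animal had no value). R 4.3.3 and limma 3.58.1 fitted the 4 group means and 5 contrasts, with Benjamini-Hochberg adjustment over all genes at 0.05; the fit was tested on simulated data. The number of arrays limits the precision. Arrays of an animal gave r of 0.993 and 0.995. Replicate numbers did not pair animals (correlations -0.18 to 0.18). All members were named, and up to 3 called genes with the largest change in each other list. Where 1 probe had no animal well above background in a group, a bound was computed. Alternatives changed the background correction, normalization, filter, probe rule, deposited table, slide or replicate block and left out each animal. Members and lists were chosen with earlier results of these data known.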

Additional observations from a re-analysis of the deposited data

Results flagged for a closer look

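Of 136 member groups examined, 8 had an animal set apart from the rest of its group by Dixon's criterion. The criterion flags 1 in 20 by chance, but genes of the same animals are not independent, so the count cannot be read against that. In fed LKO, replicate 3 was the lowest at Nr1i3 (2.72), Thra (1.07) and Esrra (3.51), and replicate 1 the highest at Esrrg (-4.30), still not well above background. In fasted LKO, replicate 5 was the lowest at Foxa2 (2.84) and Foxo3 (0.95), and replicate 3 the lowest at Onecut2 (4.55). In fasted LWT, replicate 4 was the highest at Rara (3.65). The fasting response differed between genotypes by test for Foxa3 (0.55, LKO minus LWT) and Thra (-0.51).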

How the results depend on the processing

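The number of members called stayed within 1.5 times the reported count under all alternatives run in 4 of the 5 comparisons: leaving out each animal gave 16 to 18 for fasting in LKO, 14 to 17 for fasting in LWT, 9 to 11 for LKO against LWT when fasted and 2 to 4 when fed. For the difference of the fasting responses it ranged over 2 to 4. It was 4 (1 higher, 3 lower) without fed LKO replicate 3 and 4 with normexp background correction, where Esrrg and Nr2f2 joined. Esrrg was also called with the authors' deposited table (log2 -0.84, adjusted p = 0.00189), although no LKO animal was well above background at its brightest probe. Nr2f2 was -0.36 (adjusted p = 0.0554) in the main fit. It was also called in other settings, among them the slide as a block (adjusted p = 0.0343). The cause was not tested. No called difference of a member changed sign in any alternative. Of the other genes named, 2 changed sign: the Fgf21 difference of responses with normexp (-1.64, adjusted p = 0.00685) and Mttp in fasted LKO with probes averaged (0.094, not called). With the replicate number as a block the numbers of members called were 17, 15, 10, 2 and 2 in the 5 comparisons, and 3 calls were lost: Foxo3 fasted, Nr2f2 fed and Nr2f2 with fasting in LWT. Retinoic acid receptor targets called with fasting in LWT numbered 1, against 2, with the slide as a block, and in fasted LKO against LWT livers 4 glucocorticoid receptor targets were called without fed LKO replicate 3, against 2. Signal over background limits Esrrg in LKO, Hnf4g and Vdr.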

Other observations

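Of 20 other nuclear receptor genes tested, 6 were higher and 2 lower after fasting in LKO livers and 5 higher and 1 lower in LWT livers. The shares of all genes were 23% higher and 26.7% lower in LKO, and 23.1% higher and 21.2% lower in LWT. Nr4a1, an immediate early orphan receptor, was higher by 3.07 (SE 0.15, adjusted p = 8.16e-12) after fasting in LKO and 0.35 (SE 0.17, adjusted p = 0.0986) in LWT, which was not called. Its difference of responses was 2.72 (SE 0.23, adjusted p = 2.26e-07). Nr0b2, the corepressor SHP that FXR induces, was higher by 1.25 (SE 0.20, adjusted p = 2.36e-05) after fasting in LKO. Esrrb, a paralog of Esrrg, was higher in fed LKO than in fed LWT livers by 0.74 (SE 0.09, adjusted p = 2.42e-05), in the opposite direction to Esrrg, and its difference of responses was -0.79 (SE 0.13, adjusted p = 0.000284).

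Of 28 other liver transcription factor genes tested, 11 were higher and 4 lower after fasting in LKO and 10 higher and 6 lower in LWT. Of all genes, 49.7% were called in LKO and 44.4% in LWT, so these totals are not a result about the factors. Srebf1, the lipogenic factor gene, was lower with a log2 difference of -3.69 (SE 0.12) in LKO and -3.16 (SE 0.13) in LWT. Klf6, an injury-responsive zinc finger gene, was higher by 2.30 (SE 0.13) in fasted LKO than in fasted LWT livers, with a difference of responses of 2.25 (SE 0.18). Nfe2l1, which controls proteasome genes, was -1.17 (SE 0.08) in fasted and -0.44 (SE 0.08) in fed LKO against LWT livers. Cux2 was at least 2.35-fold higher in fasted than in fed LWT livers, where no fed LWT animal was well above background. The measured means were -3.02 and -5.04, and the adjusted p of 0.00308 from the limma fit belongs to these and not to the bound. These values are descriptions of genes outside the 35, and no explanation was tested.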
